A study of Mus musculus with 20 samples.

Results

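The TRAV7 family is a group of closely related V genes of the mouse T cell receptor (TCR) α locus. Its members were taken here as the in-frame TCRα clones, without a stop codon, whose first listed V gene was a TRAV7, TRAV7D or TRAV7N gene. This rule found 30865 of 212832 in-frame clones (14.5%) in CD8 T cells of 17 mice. The single genes TRAV7-3, TRAV7D-3 and TRAV7D-5 were set against the family total. These 3 genes were picked because earlier comparisons of the same mice had called them, so their differences between genotypes are given as a description.

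CD8 T cells of male mice aged 9–12 weeks were sequenced from 4 groups, all on the C57BL/6 background. WT mice carried both specialised β5 proteasome subunits, β5i-KO mice lacked β5i (encoded by Psmb8), and β5t-KO mice lacked β5t (encoded by Psmb11). BIT mice were homozygous for an engineered allele with the β5t sequence in place of that of β5i, so that they lacked β5i and made β5t outside the thymic cortex as well. There were 4 WT mice, 5 β5i-KO mice, 4 β5t-KO mice and 4 BIT mice, and the question was how loss or misplacement of either subunit altered the CD8 T cell repertoire.

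Each library held 1983032 to 8480570 TCRα reads and 622 to 26272 in-frame clonotypes, a clonotype being a distinct combination of V gene, J gene and CDR3 amino acid sequence. The mean unique molecules per in-frame clone, called depth per clone here, ran from 1.98 in β5i-KO 4 to 114 in β5t-KO 2. It depends on how deeply a library was sampled and on cells and RNA per clone, which cannot be told apart. β5t-KO 2 and β5t-KO 4 were the smallest libraries, with 622 and 1661 clonotypes, of which 91 and 223 belonged to the TRAV7 family. Of the mice left out, β5t-KO 5 held 24 clonotypes and BIT 3 held 455, and a TCRα library of WT 5 was not analysed here. The invariant chains of NKT and MAIT cells were counted, which does not test the sort for other T cells, such as CD4 T cells. TRAV11 joined to TRAJ18, the chain of invariant NKT cells, took 0% to 0.0458% of reads, and TRAV1 joined to TRAJ33, that of MAIT cells, took 0% to 0.147%. These libraries hold TCR transcripts and no measure of Psmb8 or Psmb11, which leaves the genotype labels unchecked. In such bulk samples, fewer cells with a chain and less RNA per cell cannot be told apart.

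A TCRα chain is made when a V gene is joined to one of many J genes, and the junction, CDR3, meets the peptide held by an MHC molecule. Bases added or trimmed at the junction make each CDR3 different. In mice, part of the V gene array has been duplicated, and the letters D and N mark copies of a gene in the duplicated stretches, so that TRAV7-3 and TRAV7D-3 are near copies. The thymoproteasome, which holds β5t, is made in cortical thymic epithelial cells and shapes the peptides on which developing CD8 T cells are positively selected. The immunoproteasome, which holds β5i, is found in most other antigen-presenting cells.

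The reference annotation (GENCODE vM39, GRCm39) holds 14 Trav7 genes on the plus strand of chromosome 14, spread over 1062475 bases, each with 2 exons. Trav7-3 lies at chr14:53680706-53681296, Trav7d-3 at chr14:52981706-52982297, Trav7d-5 at chr14:53073315-53073844 and Trav7-5 at chr14:53768243-53768770. The last 42 germline bases of the second exon show how alike the genes are where they enter CDR3. In the lines that follow, capitals mark the bases that can enter CDR3, from the codon of the conserved cysteine to the end of the V gene.
TRAV7-3: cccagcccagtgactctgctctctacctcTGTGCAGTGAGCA
TRAV7D-3: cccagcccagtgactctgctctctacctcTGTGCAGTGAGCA
TRAV7-5: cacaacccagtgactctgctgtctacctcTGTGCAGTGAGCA
TRAV7D-5: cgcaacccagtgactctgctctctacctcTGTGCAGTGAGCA
TRAV7-4: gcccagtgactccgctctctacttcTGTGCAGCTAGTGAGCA
TRAV7N-4: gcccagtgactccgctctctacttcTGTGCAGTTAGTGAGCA
TRAV7-2: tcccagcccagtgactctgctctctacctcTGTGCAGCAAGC
The 13 bases TGTGCAGTGAGCA were shared by 9 of the 14 genes, and TRAV7-4, TRAV7D-4 and TRAV7N-4 had a longer end of 17 bases. TRAV7-3 and TRAV7D-3 differed at 4 of 402 transcript bases, the nearest of them 56 bases from the end of the V gene, so that their ends were identical. The Trav7d-5 and Trav7n-5 transcripts were identical over all 340 bases, and a clone of either cannot be told from the other. Over the last 270 bases, genes that differed only by the letter D or N were 95.2% to 100% identical (11 pairs), and other pairs of TRAV7 genes were 82.6% to 91.9% identical (80 pairs).

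Because of this likeness, 46.1% of the TRAV7 clones listed several V genes, and each was counted under the first. The share was 99.3% for TRAV7-2 (listed with TRAV7D-2), 98.5% for TRAV7-4 (listed with TRAV7D-4), 49.9% for TRAV7D-5 (mostly listed with TRAV7N-5) and 27.6% for TRAV7N-4. It was below 1% for TRAV7-3, TRAV7D-3 and TRAV7-5. A V gene from outside the family was listed for 13 of the 30865 clones. In total 11 of the 14 genes were the first gene of some clone. The comparisons were therefore also made by paralog set, in which the letters D and N were dropped.

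The family as a whole took 13.3% to 15.7% of in-frame clonotypes in the 17 mice. TRAV7 was the second largest of 19 V subgroups, with a mean of 14.6% of in-frame clonotypes, between TRAV12 (24.6%) and TRAV14 (12.5%). The family took 14.3%, 15.7%, 14.6% and 15.7% of clonotypes in the 4 WT mice, and 15.2%, 15.4%, 14.97%, 13.6% and 14.7% in the 5 β5i-KO mice. It took 13.3%, 14.6%, 13.8% and 13.4% in the 4 β5t-KO mice and 14.9%, 14.1%, 15.2% and 14.7% in the 4 BIT mice. The groups overlapped in all 6 comparisons of genotypes. WT mice had a mean of 15.1% ± 0.720, β5i-KO mice 14.8% ± 0.690, β5t-KO mice 13.8% ± 0.613 and BIT mice 14.7% ± 0.468, where, as for all group means given here, the error is the SD over the 4 or 5 mice of the group.

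In edgeR's quasi-likelihood test over all V subgroups, the largest difference of the family total was β5t-KO against WT, a log2 fold change of -0.15 ± 0.06 (SE) with an adjusted p of 0.103. β5t-KO against β5i-KO gave a log2 fold change of -0.11 ± 0.06 (edgeR adjusted p = 0.214), and BIT against β5t-KO gave 0.11 ± 0.06 (adjusted p = 0.220). The other comparisons gave -0.03 for β5i-KO against WT, -0.04 for BIT against WT and -0.01 for BIT against β5i-KO, with adjusted p of 0.753, 0.529 and 0.908 in edgeR. None of the 6 passed, whereas the share of all 19 subgroups called in these comparisons was 21.1% for β5t-KO against WT, 15.8% for β5t-KO against β5i-KO, 10.5% for BIT against β5t-KO, 10.5% for BIT against WT, and 0% for both β5i-KO against WT and BIT against β5i-KO. The family's difference between β5t-KO and WT mice did pass in 4 alternatives. It was -0.25 with TMM normalisation, -0.28 with DESeq2, -0.32 over clones that listed 1 V gene and -0.16 with depth per clone as a covariate, and the adjusted p over 12 alternatives ran from 0.0201 to 0.259. BIT against β5t-KO passed, at 0.12, when only these groups were fitted (adjusted p = 0.0218).

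Within this total, the single genes ranged over more than an order of magnitude. The mean shares over the 17 mice were 3.00% for TRAV7-4, 2.43% for TRAV7D-5, 2.31% for TRAV7-3, 2.22% for TRAV7-2, 1.83% for TRAV7-5, 1.07% for TRAV7D-3, 0.632% for TRAV7N-4 and 0.519% for TRAV7-1. TRAV7-6 (0.295%), TRAV7N-6 (0.236%) and TRAV7D-4 (0.0523%) were the rarest as first listed genes. TRAV7-4 and TRAV7D-4 were mostly not told apart. Both were listed by 6768 of 6876 clones counted as TRAV7-4 and by 41 of 55 counted as TRAV7D-4, so their single shares depend on the order of listing. The lowest and highest mouse overlapped between TRAV7D-5 (1.30% to 4.77%), TRAV7-4 (1.55% to 3.59%), TRAV7-3 (1.63% to 2.87%), TRAV7-2 (1.68% to 2.83%) and TRAV7-5 (1.20% to 2.89%), so these 5 have no fixed order. TRAV7D-3 (0.482% to 1.54%) lay below TRAV7-3 in every mouse.

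TRAV7-3 was lower in β5t-KO mice. It took 2.40%, 2.49%, 2.27% and 2.61% of clonotypes in the WT mice and 2.48%, 2.83%, 2.52%, 2.48% and 2.87% in the β5i-KO mice. In the β5t-KO mice it took 1.63%, 1.77%, 1.87% and 1.75%, and in the BIT mice 2.44%, 2.33%, 2.17% and 2.37%. All 4 β5t-KO mice lay below all 13 other mice. Counting error was wide in the smallest library, where 11 TRAV7-3 clonotypes of 622 gave a 95% Wilson interval of 0.990% to 3.14%. Such intervals cover counting error only.

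Its near copy TRAV7D-3 was also lowest in β5t-KO mice. BIT and β5i-KO mice were close in TRAV7D-3, with a log2 fold change of 0.02 ± 0.13 (SE) for BIT against β5i-KO. It took 0.896%, 1.16%, 0.914% and 1.08% of clonotypes in WT mice and 1.20%, 1.48%, 1.29%, 1.15% and 1.23% in β5i-KO mice. It took 0.776%, 0.482%, 0.797% and 0.542% in β5t-KO mice and 1.14%, 1.43%, 1.54% and 1.07% in BIT mice. The β5t-KO mice again lay below the 13 others, although β5t-KO 2 and β5t-KO 4 held only 3 and 9 TRAV7D-3 clonotypes. With the copies added, the TRAV7-3 set took 2.40% ± 0.187 in β5t-KO mice (SD, n = 4). WT mice had 3.46% ± 0.251, BIT mice 3.62% ± 0.140 and β5i-KO mice 3.91% ± 0.293.

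**Figure D1:**
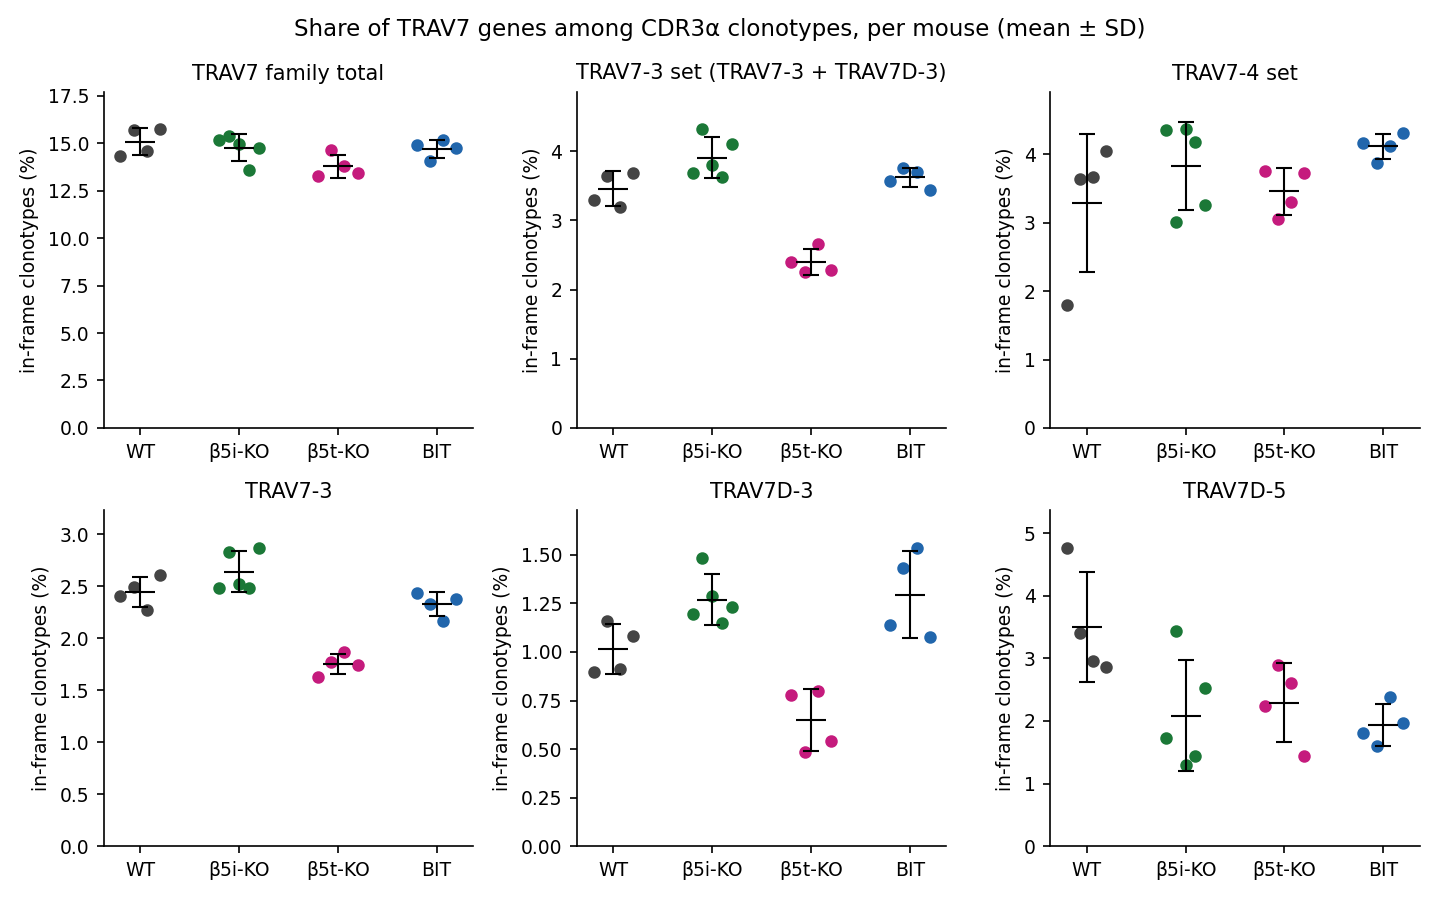
Share of in-frame TCRα clonotypes (y axis, percent) per mouse (points) for the TRAV7 family, the TRAV7-3 and TRAV7-4 sets, and TRAV7-3, TRAV7D-3 and TRAV7D-5, with group mean and SD (bars) for the 4 genotypes. The family total stayed between 13.3% and 15.7%, while the 4 β5t-KO mice lay below all others for TRAV7-3, TRAV7D-3 and their set, and TRAV7D-5 was highest in WT 1 (4.77%).

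The plot of shares by mouse sets this loss against the family total. The family mean was also lowest in β5t-KO mice (13.8%, against 15.1% in WT mice), with overlapping ranges. As fold changes, the TRAV7-3 set in β5t-KO mice was -0.49 ± 0.11 (log2, SE) against WT and -0.65 ± 0.11 against β5i-KO, and BIT mice were 0.55 ± 0.11 above β5t-KO mice. BIT and WT mice differed in this set by 0.06 ± 0.09, which turned to -0.07 with TMM normalisation and -0.09 with DESeq2. TRAV7-3 alone gave -0.48 ± 0.13 for β5t-KO against WT, -0.58 ± 0.12 for β5t-KO against β5i-KO and 0.41 ± 0.13 for BIT against β5t-KO. For TRAV7D-3 the same comparisons gave -0.47 ± 0.19, -0.78 ± 0.18 and 0.80 ± 0.18. The β5t-KO mice are shared by these 3 comparisons, which are not independent of each other.

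The calls of the set were kept in all 12 alternatives and on leaving out each of the 17 mice, in all 3 comparisons with β5t-KO mice. Those of TRAV7D-3 against β5i-KO and BIT mice were kept in the same way. TRAV7-3 alone lost its call against WT with the replicate block and without WT 2, WT 4 or β5t-KO 1. Against BIT mice it lost the call with TMM normalisation, DESeq2, the replicate block or no filter on low counts, and on leaving out β5i-KO 1, any β5t-KO mouse, BIT 1, BIT 2 or BIT 5. All of these calls belong to the contrasts from which the genes were picked, and nothing is read from their number.

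Across all 11 TRAV7 genes, all of which passed the filter of at least 5 clonotypes in at least 4 libraries, none was called beside the 3 named above. For β5t-KO against WT, 1 of 11 TRAV7 genes was called (TRAV7-3), where 6.67% of all 90 TRAV genes were called. For β5t-KO against β5i-KO, 2 of 11 were called (TRAV7-3 and TRAV7D-3), beside 6.67% of all genes. BIT against β5t-KO gave 2 of 11 (the same genes, higher in BIT mice) beside 7.78%. For β5i-KO against WT and for BIT against WT, 1 of 11 was called (TRAV7D-5 in both), beside 1.11% and 2.22%. No TRAV7 gene was called by edgeR for BIT against β5i-KO, where 0% of all genes were called, 0 TRAV7 genes had an unadjusted p under 0.05 and DESeq2 called 0. Of all 90 genes, 3 had an unadjusted p under 0.05 there and DESeq2 called 0.

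**Figure D2:**
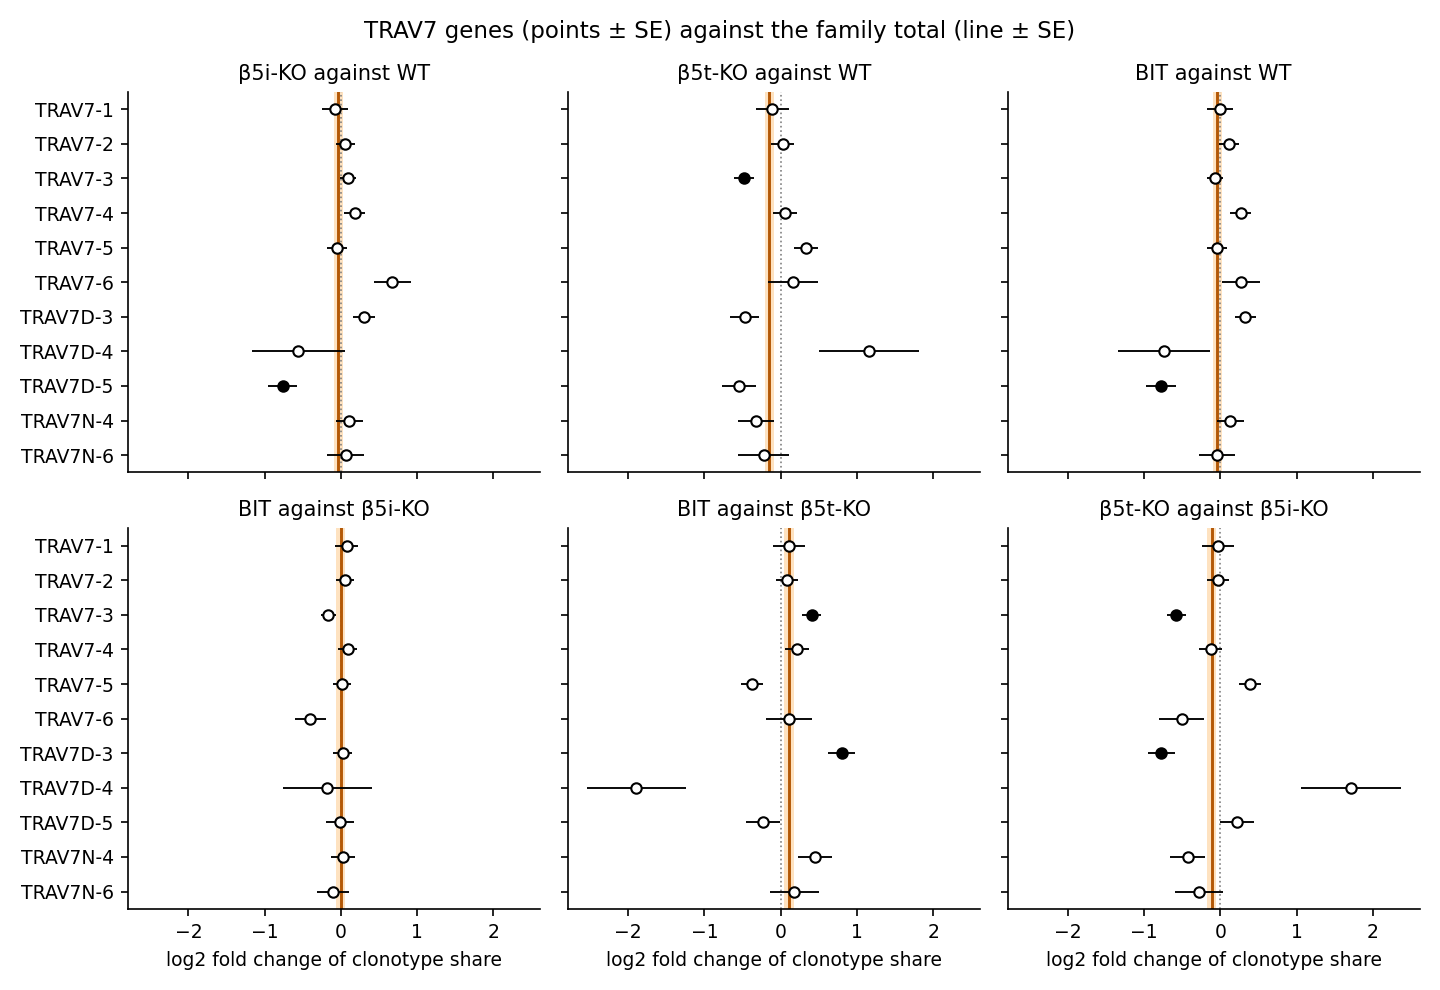
Log2 fold change of clonotype share (x axis) of each of the 11 TRAV7 genes (points, with SE) in the 6 comparisons of genotypes, with the family total as a line and its SE as a band. Filled points passed an adjusted p of 0.05 in edgeR. They are TRAV7-3, TRAV7D-3 and TRAV7D-5, the genes picked from these comparisons, and they lie away from a family line that stays between -0.15 and 0.11.

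The median log2 fold change over the 11 genes was -0.11 for β5t-KO against WT, where that of all 90 genes was 0.09, and -0.13 for β5t-KO against β5i-KO, where it was -0.03. It was 0.11 for BIT against β5t-KO (all genes 0.06), 0.06 for β5i-KO against WT (all genes 0.09), 0.00 for BIT against WT (all genes 0.13) and 0.01 for BIT against β5i-KO (all genes 0.01). TMM normalisation and DESeq2 moved the median of all TRAV genes for BIT against WT by -0.12 and -0.13, and in the other comparisons by less than 0.1.

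By paralog set, the TRAV7-3 set was the only one of the 6 TRAV7 sets called, in the 3 comparisons with β5t-KO mice. It is made of TRAV7-3 and TRAV7D-3, both picked from these comparisons, so its calls are a description. The share of all 53 sets called was 5.66% for β5t-KO against WT, 7.55% for β5t-KO against β5i-KO and 9.43% for BIT against β5t-KO. It was 1.89% for BIT against WT and 0% for β5i-KO against WT and for BIT against β5i-KO. In those 3 comparisons edgeR called 0 TRAV7 sets, with 1, 2 and 0 sets at an unadjusted p under 0.05, and DESeq2 called 1, 0 and 0. Of all 53 sets, 11, 7 and 3 had an unadjusted p under 0.05, and DESeq2 called 2, 0 and 0.

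TRAV7D-5 had the widest spread between mice in percentage points. It took 4.77%, 3.41%, 2.96% and 2.87% of clonotypes in WT mice and 1.73%, 3.44%, 1.30%, 1.44% and 2.53% in β5i-KO mice. It took 2.23%, 2.89%, 2.60% and 1.44% in β5t-KO mice and 1.80%, 1.59%, 2.38% and 1.97% in BIT mice. BIT mice lay below all WT mice, while β5i-KO 2 lay above 3 of the 4 WT mice and the β5t-KO range reached into that of WT. Against WT mice, the log2 fold change of TRAV7D-5 came to -0.77 ± 0.19 (SE) in β5i-KO mice, -0.78 ± 0.19 in BIT mice and -0.55 ± 0.23 in β5t-KO mice. The call for β5i-KO mice was lost in 7 of 12 alternatives and on leaving out WT 1, WT 3, β5i-KO 1, β5i-KO 3, β5i-KO 4, β5t-KO 1 or BIT 5, and that for BIT mice in 5 of 12 alternatives and on leaving out WT 1, BIT 1, BIT 2 or BIT 5.

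The groups that differed in TRAV7D-5 also differed in depth per clone. Unique molecules per clone were 27.6, 28.4, 19.04 and 30.1 in the WT mice and 13.4, 7.80, 7.96 and 8.82 in the BIT mice. They were 7.71, 27.0, 10.0, 1.98 and 22.2 in the β5i-KO mice. Of these, β5i-KO 2 and β5i-KO 5, with the most molecules per clone, had the highest TRAV7D-5 shares of the group. The deepest WT mouse (WT 4) had the lowest share of its group, and the deepest BIT mouse (BIT 1) lay below BIT 4 and BIT 5. β5t-KO 2 and β5t-KO 4, at 114 and 89.6 molecules per clone, had 2.89% and 1.44%. With log2 molecules per clone as a covariate, a fit chosen after seeing the data, the log2 fold change was -0.54 for β5i-KO against WT and -0.52 for BIT against WT, and both calls were lost. The TRAV7-3 set kept its 3 calls in that fit. Both TRAV7D-5 calls were kept when unique molecules were thinned to the shallowest library, which equalised molecules per library and not per clone. The part that depth plays in the TRAV7D-5 difference was not tested beyond these fits.

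Splitting the gene by its listing separated clones that named TRAV7D-5 alone from those that also named the identical TRAV7N-5. Listed alone, TRAV7D-5 took 2.52% ± 1.32 of clonotypes in WT mice and 0.830% ± 0.241 in BIT mice, with β5t-KO mice (1.69% ± 0.593) and β5i-KO mice (1.18% ± 0.920) between them. Listed with TRAV7N-5, it took 0.976% ± 0.540 in WT mice and 1.10% ± 0.0958 in BIT mice, and the shares of β5i-KO and β5t-KO mice were 0.904% ± 0.137 and 0.599% ± 0.535. The WT and BIT means were thus further apart for the clones listed alone. The listing also varied within a group. WT 1 had 4.32% listed alone and 0.448% listed with TRAV7N-5, and WT 3 had 1.22% and 1.73%. As the 2 genes are identical in the annotation used here, what decides the listing is not known. The 2 listings therefore cannot be read as different kinds of clone. In the 4 WT mice the clones listed alone held a mean of 50.8, 43.1, 27.5 and 45.1 molecules, and those listed with TRAV7N-5 held 5.64 (from 11 clonotypes), 20.7, 22.2 and 26.3.

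**Figure D3:**
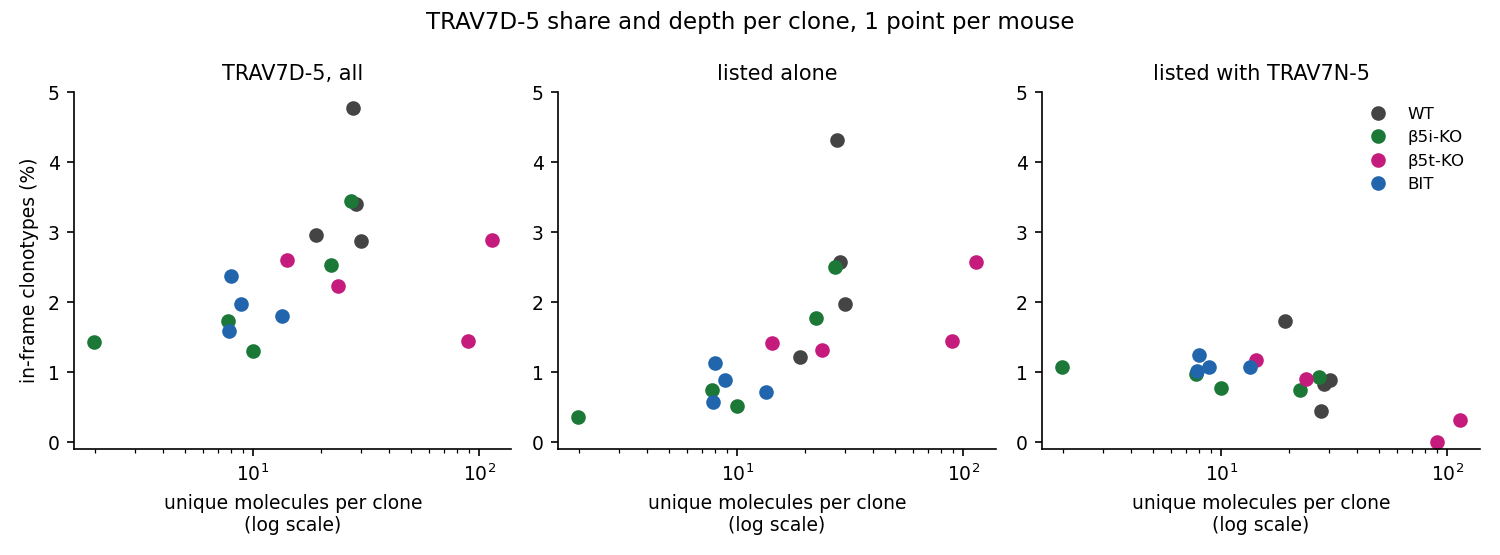
Share of in-frame clonotypes assigned to TRAV7D-5 (y axis, percent) against unique molecules per clone (x axis, log scale), 1 point per mouse coloured by genotype, for all TRAV7D-5 clonotypes, those listing it alone and those listing it with TRAV7N-5. The BIT mice lie at 7.80 to 13.4 molecules per clone and the WT mice at 19.04 to 30.1, and β5i-KO 2 and β5i-KO 5 (27.0 and 22.2) hold the highest shares of their group.

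The other TRAV7-5 copy did not follow TRAV7D-5. TRAV7-5 took 2.33% ± 0.441 of clonotypes in β5t-KO mice, where WT mice had 1.71% ± 0.152, BIT mice 1.67% ± 0.185 and β5i-KO mice 1.66% ± 0.274. Its log2 fold change in β5t-KO mice was 0.33 ± 0.15 against WT and 0.39 ± 0.15 against β5i-KO, opposite in sign to TRAV7-3, and did not pass (edgeR adjusted p = 0.194 and 0.0992). For the whole TRAV7-5 set the log2 fold change was -0.49 ± 0.15 for BIT against WT (edgeR adjusted p = 0.0526) and -0.48 ± 0.14 for β5i-KO against WT (adjusted p = 0.122). Over the alternatives the adjusted p of the former ran from 0.00323 to 0.596, with 5 of 12 alternatives below the threshold, and it also passed on leaving out WT 4, β5i-KO 2, β5i-KO 3, β5i-KO 4 or β5i-KO 5. For β5i-KO against WT the set passed without β5i-KO 2 or β5i-KO 5.

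The remaining sets did not pass in any comparison. The TRAV7-4 set took 1.79% in WT 1 and 3.65%, 3.66% and 4.05% in the other WT mice, against 3.01% to 4.37% in the other genotypes. Its log2 fold changes lay between -0.15 and 0.25. TRAV7-2 ran from 1.68% to 2.83% over all mice with no group apart from the others, and its log2 fold changes lay between -0.03 and 0.11. TRAV7-1 ran from 0.322% to 0.646% and the TRAV7-6 set from 0.301% to 0.802%. TRAV7D-4, whose clones mostly listed TRAV7-4 as well, was the first listed gene of 54 clonotypes in all. The highest shares were those of 2 of the 4 β5t-KO mice (0.241% and 0.161%, from 4 clonotypes and 1 clonotype). The log2 fold change of TRAV7D-4 for BIT against β5t-KO was -1.89 ± 0.65 and did not pass (edgeR adjusted p = 0.0586).

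The TRAV7 genes also differed in how many transcripts stood behind each clonotype. The share of unique molecules divided by the share of clonotypes was 1.29 ± 0.110 for the TRAV7-5 set (SD, n = 17) and above 1 in 17 of 17 mice. It was 0.937 ± 0.0961 for the TRAV7-3 set, 0.843 ± 0.0913 for TRAV7-2, 0.730 ± 0.151 for the TRAV7-6 set, 0.679 ± 0.0748 for the TRAV7-4 set and 0.661 ± 0.125 for TRAV7-1. It was above 1 in 3, 1, 1, 0 and 0 mice in the same order. These ratios depend on RNA per cell, on cells per clone and on how well each V gene was amplified, which cannot be told apart.

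The family was joined to J genes somewhat unlike those of other V genes. In the mouse locus, TRAJ genes with high numbers lie nearest the V genes. The mean TRAJ number was 26.1 ± 0.744 for TRAV7 clonotypes and 29.2 ± 0.991 for all other TRAV clonotypes (SD, n = 17). It was lower for TRAV7 in 17 of 17 mice, by 3.05 ± 0.594 (exact sign-flip permutation test within mice, two-sided, p = 1.5e-05, the smallest 17 mice can give; adjusted p = 2.3e-05 over 3 measures). TRAJ26 took 6.03% of TRAV7 clonotypes and 4.39% of the others, higher in 17 of 17 mice. TRAJ22 took 6.03% and 6.08%. TRAJ30 (5.56% against 4.41%), TRAJ15 (4.95% against 3.63%), TRAJ21 (4.45% against 3.29%) and TRAJ9 (4.22% against 3.18%) were each higher in 16 of 17 mice. The V-proximal TRAJ56 (0.909% against 1.84%), TRAJ57 (0.443% against 1.48%) and TRAJ58 (0.222% against 1.15%) were lower in 17 of 17.

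Within the family, the mean TRAJ number followed the position of the first listed V gene over much of the locus. That position is uncertain for TRAV7-2 and TRAV7-4, as 99.3% and 98.5% of their clones listed several V genes. The gene listed beside them was mostly TRAV7D-2 or TRAV7D-4, copies nearer the 5′ end. The position is also uncertain in part for TRAV7D-5 and TRAV7N-4. Of 477 TRAV7N-6 clones, 475 listed that gene alone, although TRAV7D-6, nearer the 5′ end, is identical to it over the last 270 bases. The place of TRAV7N-6 is thus uncertain too. From the 5′ end of the locus, the mean TRAJ number was 23.8 ± 1.55 for TRAV7-1, 26.4 ± 4.55 for TRAV7D-3, 25.2 ± 1.22 for TRAV7D-5, 20.6 ± 3.10 for TRAV7N-4 and 22.4 ± 3.30 for TRAV7N-6 (SD, n = 17). It was 24.4 ± 1.37 for TRAV7-2, 24.5 ± 2.16 for TRAV7-3, 26.7 ± 1.21 for TRAV7-4, 31.3 ± 1.30 for TRAV7-5 and 41.0 ± 2.44 for TRAV7-6. The first 3 of these 10 genes had no such order, and the means rose at each step over the last 7, from TRAV7N-4 to TRAV7-6, although neighbours up to TRAV7-3 differed by less than the larger of their SDs. TRAV7-5 and above all TRAV7-6, the gene nearest the J cluster, had the highest mean numbers, that is, J genes nearest the V genes.

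**Figure D4:**
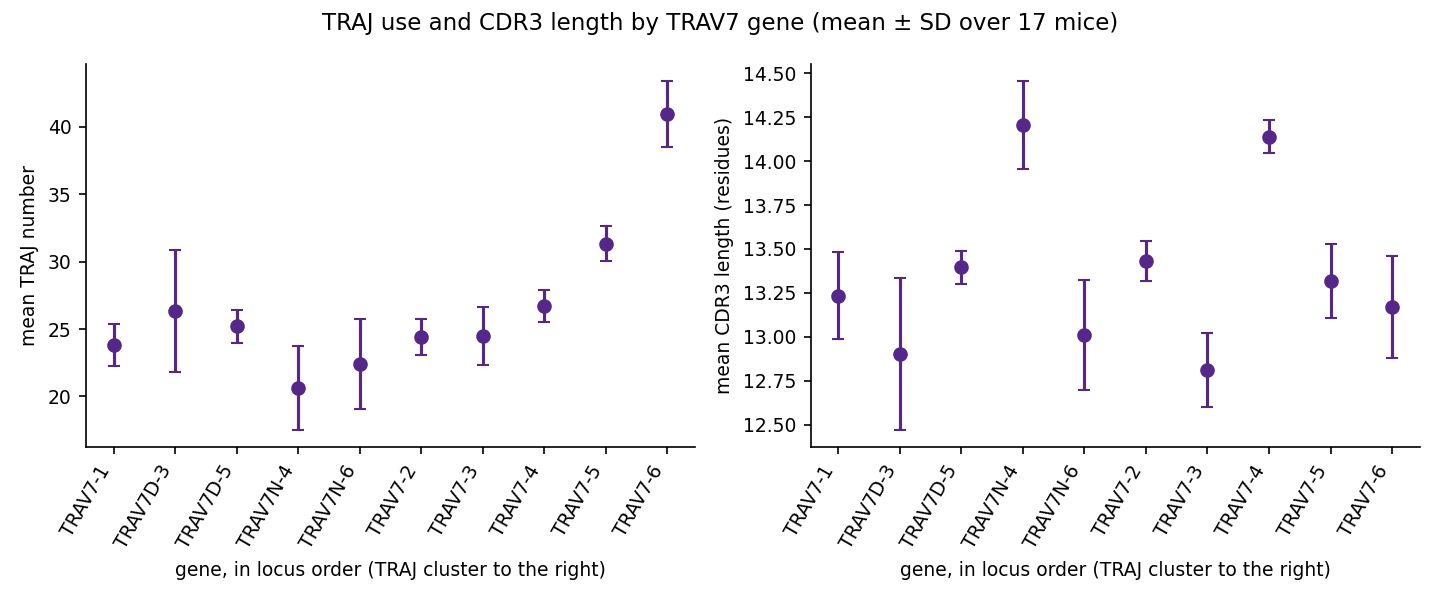
Mean TRAJ number (left) and mean CDR3 length in residues (right) of the clonotypes of each TRAV7 gene, as mean and SD over 17 mice, with genes in their order along the locus and the TRAJ cluster to the right. TRAV7D-4, with 54 clonotypes, is left out. Each gene stands at the place of the first listed gene, although most TRAV7-2 and TRAV7-4 clones also listed a copy nearer the 5′ end. TRAV7-6 stands apart at a TRAJ number of 41.0, and TRAV7-4 and TRAV7N-4, with the longer germline end, have the longest CDR3 (14.1 and 14.2 residues).

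The plot by locus order shows that CDR3 length followed the germline ends given above in part. TRAV7-4 and TRAV7N-4 had a mean CDR3 length of 14.1 ± 0.0928 and 14.2 ± 0.251 residues (SD, n = 17). The genes with the 13-base end were shorter, from 12.8 ± 0.208 for TRAV7-3 and 12.9 ± 0.433 for TRAV7D-3 to 13.4 ± 0.0941 for TRAV7D-5. TRAV7-2, with an end of 12 bases, was no shorter (13.4 ± 0.116), and the rare TRAV7D-4, with 17 bases, had 13.5 ± 1.25. The start of CDR3 followed the same ends. It was CAA in 96.6% of TRAV7-4 and 93.0% of TRAV7-2 clonotypes, and CAV in 99.5% of TRAV7N-4, 85.4% of TRAV7D-5, 83.1% of TRAV7-5, 78.9% of TRAV7-3 and 76.8% of TRAV7D-3 clonotypes. TRAV7-4 and TRAV7N-4 differ at only 1 of their last 100 bases, the base that makes this start CAA or CAV. Their clones may have been assigned by that base, so the contrast between these 2 genes is not an independent result.

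CDR3 of the whole family was 13.43 ± 0.0768 residues long, 0.238 ± 0.138 shorter than in other TRAV clonotypes and shorter in 17 of 17 mice (exact sign-flip permutation p = 1.5e-05, adjusted p = 2.3e-05). Junctions without an added nucleotide made up 27.7% ± 3.19 of TRAV7 clonotypes and 26.2% ± 2.24 of the others. The difference of 1.53 ± 1.36 percentage points was positive in 16 of 17 mice (exact sign-flip permutation p = 7.6e-05, adjusted p = 7.6e-05).

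Between genotypes, none of 18 tests of these 3 measures passed after adjustment. TRAV7 junctions without an added nucleotide made up 31.0%, 29.6%, 25.9% and 25.3% of clonotypes in WT mice and 23.3%, 29.3%, 24.8%, 28.6% and 27.8% in β5i-KO mice. They made up 29.3%, 33.0%, 30.1% and 33.6% in β5t-KO mice and 23.9%, 27.6%, 24.4% and 24.2% in BIT mice. BIT and β5t-KO mice did not overlap, and BIT minus β5t-KO was -6.46 points (p = 0.0286 by two-sided exact permutation, adjusted p = 0.114), and 0.0286 is the smallest p that 4 mice against 4 can give. The other TRAV clonotypes did not overlap either, with 23.3% to 26.1% in BIT mice and 26.5% to 29.6% in β5t-KO mice. In the TRAV7-3 set this share was 41.1% ± 12.4 in β5t-KO mice (30.9% to 57.1%), where WT mice had 28.1% ± 6.53, β5i-KO mice 27.2% ± 4.44 and BIT mice 24.8% ± 2.44. Those of the β5t-KO mice rest on 14 to 204 clonotypes a mouse.

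WT mice had a mean TRAJ number of 25.5 ± 0.608 in the family, BIT mice 25.8 ± 0.983, β5i-KO mice 26.3 ± 0.210 and β5t-KO mice 26.9 ± 0.327. β5t-KO mice (26.4 to 27.1) did not overlap with WT mice (25.0 to 26.2), and the groups were 1.36 apart (p = 0.0286 by exact permutation, adjusted p = 0.114). The other TRAV clonotypes of β5t-KO mice gave 30.4 ± 0.646, against 28.4 ± 0.711 in WT. CDR3 length of the family was 13.41 to 13.46 residues in the 4 group means and differed by at most 0.0459 between them (lowest exact permutation p = 0.343). With 5 mice against 4 the smallest p is 0.00794.

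TRAV7 clonotypes were next counted by J gene. Of 576 pairs of V subgroup and TRAJ gene tested, 43 were TRAV7 pairs. Only BIT against β5t-KO gave TRAV7 calls in edgeR, 2 of 43 beside 2.08% of all pairs, and both were higher in BIT mice. TRAV7 with TRAJ2 took 0.118%, 0.107%, 0.384% and 0.118% of clonotypes in BIT mice and 0.0466%, 0.161%, 0.0653% and 0% in β5t-KO mice (3, 1, 5 and 0 clonotypes), with a log2 fold change of 1.71 ± 0.44 (adjusted p = 0.0111). TRAV7 with TRAJ4 took 0.266%, 0.246%, 0.655% and 0.319% in BIT mice and 0.109%, 0.322%, 0.235% and 0.361% in β5t-KO mice, with a log2 fold change of 0.89 ± 0.27 (adjusted p = 0.0443).

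The ranges of BIT and β5t-KO mice overlapped for both pairs, and BIT 4 held the highest share of each. Without BIT 4 neither pair was called, and DESeq2 called neither. The count fell to 0 or 1 without any of 7 other mice, WT 1, WT 3, β5i-KO 1 and each β5t-KO mouse. In the other 5 comparisons edgeR called 0 TRAV7 pairs, and DESeq2 also called 0. The share of all pairs called was 2.26% for β5t-KO against WT, 2.08% for β5t-KO against β5i-KO, 0.174% for BIT against WT, 0% for β5i-KO against WT and 0% for BIT against β5i-KO. TRAV7 pairs with an unadjusted p under 0.05 numbered 5, 5, 3, 1 and 3 in the same order, and pairs of all V subgroups 78, 77, 52, 47 and 22 of 576. Of all 576 pairs DESeq2 called 8, 6, 0, 0 and 0 in that order.

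Rearrangements that are out of frame or hold a stop codon make no receptor of their own, so their V genes were not selected through that receptor. They were counted here as transcripts, so RNA level and amplification of each V gene also affect which are seen. The TRAV7 family took 14.3% ± 0.735 of in-frame and 12.4% ± 2.27 of non-productive clonotypes, both counted by nucleotide sequence (SD, n = 17). The in-frame share was higher in 14 of 17 mice, by 1.99 ± 2.14 percentage points (exact sign-flip permutation test, two-sided, p = 0.00293). The 3 mice with the opposite sign were β5i-KO 5, β5t-KO 2 and β5t-KO 4, with differences of -1.44, -2.40 and -2.63 points from 70, 11 and 34 non-productive TRAV7 clonotypes.

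The single genes did not share this direction, and are given as a description. TRAV7D-3 took 1.03% of in-frame and 0.319% of non-productive clonotypes, a 3.24-fold ratio, higher in frame in 17 of 17 mice. TRAV7-2 (2.18% against 1.13%) was higher in frame in 16 mice, TRAV7-3 (2.29% against 1.22%) in 15 and TRAV7-5 (1.80% against 1.42%) in 15. TRAV7-4 went the other way, with 2.95% against 3.93%, and was higher in frame in 2 of 17 mice. TRAV7D-5 (2.43% against 2.60%) was higher in 8 and TRAV7-1 (0.498% against 0.737%) in 7. Counts of non-productive clonotypes were 72 for TRAV7D-3, 241 for TRAV7-3 and 966 for TRAV7-4.

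**Figure D5:**
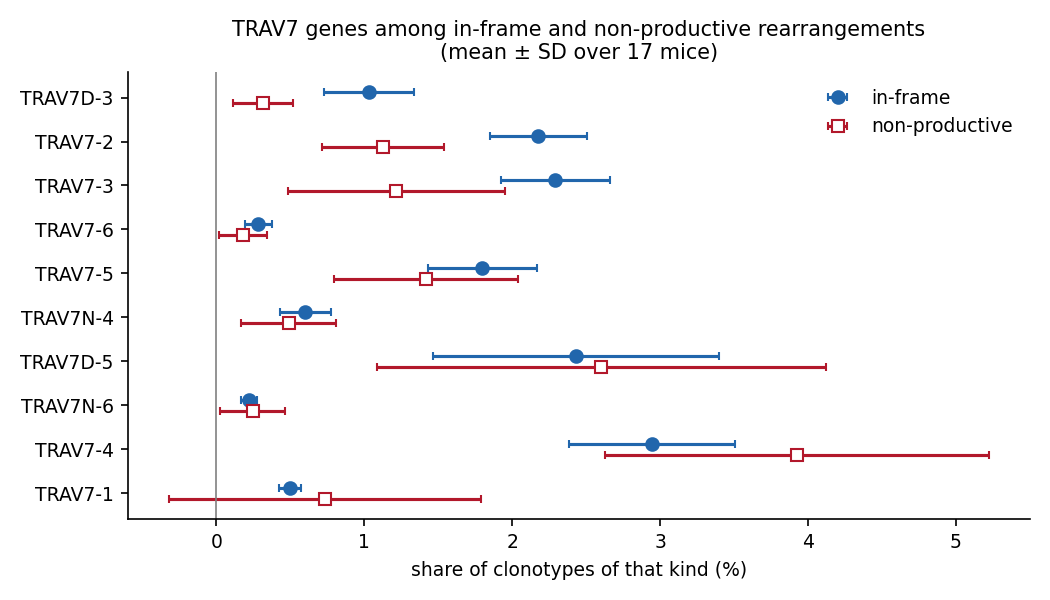
Share of in-frame (filled circles) and non-productive (open squares) nucleotide clonotypes (x axis, percent of clonotypes of that kind) for each TRAV7 gene with at least 20 non-productive clonotypes, as mean and SD over 17 mice. The bar of TRAV7-1 extends below 0 only because its SD (1.05) exceeds its mean. TRAV7D-3, TRAV7-2 and TRAV7-3 have the larger in-frame shares and TRAV7-4 the larger non-productive share.

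The comparison of in-frame with non-productive shares was also set out by genotype for TRAV7-3. It took 1.75% ± 0.133 of in-frame and 1.69% ± 1.03 of non-productive clonotypes in β5t-KO mice (SD, n = 4, 23 non-productive clonotypes in all), and the in-frame share was higher in 2 of 4 mice. In WT it took 2.39% against 0.938%, in β5i-KO 2.64% against 1.29% and in BIT mice 2.31% against 0.931%, and the in-frame share was higher in all 13 of these mice. TRAV7D-3 took 0.616% against 0.236% in β5t-KO mice, higher in frame in 4 of 4. Whether these ratios differ between genotypes was not tested.

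The CDR3 sequences of the family were mostly private to a mouse. Of 16548 distinct TRAV7 sequences, 73.0% were found in 1 mouse, 150 in at least 10 mice and 1 in all 17. Sequences at 10 CPM (reads scaled to the size of the library) or more in at least 3 mice of a group, termed recurring here, numbered 741 in the family out of 5177 (14.3%). The family held 174 of 1216 recurring sequences in WT, 356 of 2669 in β5i-KO, 24 of 192 in β5t-KO and 538 of 3750 in BIT mice, so that its share of them was 14.3%, 13.3%, 12.5% and 14.3%.

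The 5 TRAV7 sequences with the highest mean abundance show how these CDR3 were built. Each line gives the most abundant nucleotide form of the sequence, with the bases that the authors' alignment assigned to the V gene in capitals and the rest in lower case.
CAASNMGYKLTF: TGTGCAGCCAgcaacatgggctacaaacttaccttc
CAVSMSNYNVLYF: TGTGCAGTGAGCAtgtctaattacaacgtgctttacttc
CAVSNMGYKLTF: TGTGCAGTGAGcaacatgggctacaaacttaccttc
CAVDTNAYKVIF: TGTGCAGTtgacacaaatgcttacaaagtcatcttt
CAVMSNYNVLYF: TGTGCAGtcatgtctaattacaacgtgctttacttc
By that alignment none of the 5 forms held an added base. The capitals of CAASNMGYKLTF match none of the germline ends in full, and those of the other 4 are the start of the 13-base end. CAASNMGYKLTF and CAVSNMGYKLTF were joined to TRAJ9, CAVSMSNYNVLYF and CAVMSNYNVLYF to TRAJ21, and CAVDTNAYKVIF to TRAJ30. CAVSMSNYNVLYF, which keeps the whole 13-base germline end, was the sequence found in all 17 mice.

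The mean levels of these sequences over the 17 mice were 961, 840, 725, 701 and 589 CPM in the order of the lines. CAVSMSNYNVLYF lay at 364 to 2427 CPM in WT mice, 299 to 2030 in β5i-KO mice, 87.4 to 4823 in β5t-KO mice and 206 to 454 in BIT mice. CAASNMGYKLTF lay at 0 to 1350, 268 to 1523, 132 to 3685 and 330 to 1582 CPM in the same groups. β5t-KO 2, the smallest library, held the highest level of each of the 5 sequences (1984 to 5331 CPM), while the other β5t-KO mice reached at most 1005 CPM. The ranges of the 4 genotypes overlapped for both of the sequences given by group.

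No TRAV7 CDR3 sequence was called by edgeR in any of the 6 comparisons, where 0.0193% (β5i-KO against WT), 0.0773% (β5t-KO against WT), 0.0386% (BIT against WT), 0% (BIT against β5i-KO), 0.116% (BIT against β5t-KO) and 0.27% (β5t-KO against β5i-KO) of all recurring sequences were called. In the same order, 179, 319, 179, 100, 403 and 371 of the 741 TRAV7 sequences had an unadjusted p under 0.05. Of all 5177 recurring sequences, 1167, 2241, 1161, 709, 2584 and 2452 had one. DESeq2 called 144, 316, 118, 53, 397 and 349 of the TRAV7 sequences and 947, 2237, 797, 363, 2555 and 2364 of all. With TMM normalisation edgeR called 383 TRAV7 sequences for BIT against β5t-KO, so the count there turned on the scaling as well as on the tool. The count over all sequences with TMM is not given here, so nothing particular to TRAV7 is read from it.

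Of the 18 other V subgroups, the shares most like that of the TRAV7 family over the 17 mice were those of TRAV1 (Spearman's rho 0.53), TRAV8 (0.36) and TRAV5 (0.21). The shares of a mouse come from a common library and add up to the whole, so this likeness is given as a description.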

How the data were processed

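The authors sorted CD8 T cells (from spleens and lymph nodes by their methods, from lymph nodes by the sample labels) and amplified TCR transcripts with a kit that tags unique molecules. The authors assembled clones with MiXCR, and its version, settings and V gene reference are not given in the sources used here. Per clone, the deposited tables hold the counts of reads and of unique molecules, not normalised, with V and J genes and CDR3 sequence. Replicates were not pooled. The genome build mm10 is named in the submitters' processing notes, whereas positions and germline sequences here are those of GRCm39 with the GENCODE vM39 annotation.

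In-frame clones without a stop were assigned to their first listed V gene, and each clonotype was counted once per mouse. Counts were tested with the quasi-likelihood test of edgeR 4.0.16 under R 4.3.3, scaled by library size, with all 17 mice fitted together, on all TRAV genes, paralog sets, V subgroups and V–J pairs that had 5 or more clonotypes in 4 or more libraries, and on reads of recurring CDR3 sequences. P-values were adjusted by Benjamini-Hochberg over all features of a comparison, with a threshold of 0.05, and DESeq2 1.42.0 was an alternative. Other measures were compared with exact permutation tests (SciPy 1.17.1, pandas 2.3.3 and NumPy 2.4.6 under Python 3.11.15; figures by Matplotlib 3.10.9). The fits were tested on simulated data.

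The libraries held 1983032 to 8480570 TCRα reads. β5t-KO 5 and BIT 3, with 24 and 455 clonotypes, were left out by the rule that defined this part, and not by a filter on depth. BIT 3 lay above the floors set for a usable library (1000 reads and 100 CDR3 sequences), and it was included in an alternative. Which BIT mouse was left out by the authors is not given in the sources used here. No 2 libraries of a group were identical (28 pairs compared). Replicate numbers occur in every group, but same-numbered mice did not deviate together (correlations of -0.30 to 0.26, 7 of 22 pairs over 0.1), so they were not paired.

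The family, the 3 named genes and the gene lists were chosen with earlier results of these data known. Values per mouse are given for these 3 genes and other TRAV7 genes called and for called TRAV7–TRAJ pairs (at most 3 per comparison). The text further names the 5 most abundant TRAV7 CDR3 sequences, at most 2 called per comparison (none was), and the 3 V subgroups most like the family in share.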

Additional observations from a re-analysis of the deposited data

Results flagged for a closer look

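Values that lay far from the rest of their group were sought in 56 groups of mice, where chance alone would mark about 1 in 20, and 3 were found. In BIT 2 the mean CDR3 length of TRAV7 clonotypes was 13.36 residues, against 13.48 to 13.50 in the other BIT mice. The share of TRAV7 clonotypes without an added nucleotide was 27.6% in BIT 2, against 23.9% to 24.4% in the others. In BIT 5 the in-frame share of the family exceeded the non-productive share by 3.21 percentage points, against 2.69 to 2.73 in the others. In BIT 3, a library left out of the comparisons, the family took 85 of 455 clonotypes, or 18.7% (95% Wilson interval 15.4% to 22.5%, counting error only), against 14.3% to 15.7% in WT mice.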

How the results depend on the processing

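The 3 calls of the TRAV7-3 set against or from β5t-KO mice, the 2 calls of TRAV7D-3 and the difference between in-frame and non-productive shares (1.67 to 3.24 points over the alternatives, 1.85 to 2.28 on leaving out a mouse) kept their direction and their side of the threshold in all settings run. TRAV7-3 and TRAV7D-3 were picked for calls in these same mice, so the stability of their calls is a description. Counts of called TRAV7 genes were 1 for β5i-KO against WT, β5t-KO against WT and BIT against WT, and 2 for BIT against β5t-KO. For β5i-KO against WT the count was 0 with TMM normalisation, DESeq2, unique molecules, reads, clones that list 1 V gene, only the groups compared and depth per clone as a covariate. For BIT against WT it was 0 with DESeq2, unique molecules, reads, clones that list 1 V gene and the covariate. For β5t-KO against WT it was 0 with the replicate block and 2 with reads or only the groups compared. For BIT against β5t-KO it was 1 with TMM normalisation or no filter and 4 with nucleotide sequences. Sets numbered 1 in place of 0 for β5i-KO against WT with the replicate block or thinned molecules, and for BIT against WT with TMM, DESeq2, the replicate block, nucleotide sequences or only the groups compared, which also gave 2 in place of 1 for BIT against β5t-KO. TRAV7–TRAJ pairs for BIT against β5t-KO numbered 1 with TMM, the replicate block or at least 10 clonotypes, and 0 with DESeq2 or unique molecules, which gave 1 for β5t-KO against β5i-KO. With DESeq2 the CDR3 counts were 144, 316, 118, 53, 397 and 349, in the order of the report. For BIT against β5t-KO they were 383 with TMM, 1 at 20 CPM and 1 with unique molecules, which gave 3 for β5t-KO against WT. In 22 pairs of same-numbered mice 7 correlations were over 0.1, and 2 of 17 mice correlated best with their own number, so a call lost under the replicate block says nothing of its size. On leaving out each mouse, gene counts ran from 0 to 1 for β5i-KO, β5t-KO and BIT against WT and from 1 to 3 for BIT against β5t-KO, set counts from 0 to 1 for β5i-KO and BIT against WT and from 1 to 2 for β5t-KO against β5i-KO, and pair counts from 0 to 1 for β5t-KO against WT and from 0 to 2 for BIT against β5t-KO. CDR3 counts ran from 0 to 2 for β5t-KO against WT, from 0 to 1 for BIT against β5t-KO and from 0 to 19 for BIT against β5i-KO, the last without BIT 2. The cause of these changes was not tested. Most counts over all features in these settings are not given here, so none is read as a result about TRAV7.

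The family's log2 fold change for BIT against β5t-KO passed at 0.12 with only the groups compared, and that for β5t-KO against WT passed at -0.25 (TMM), -0.28 (DESeq2), -0.32 (1 V gene) and -0.16 (covariate). Small differences changed sign. The family gave 0.011 (β5i-KO against WT) and 0.0065 (BIT against WT) with the covariate, and 0.024 (BIT against β5i-KO) with BIT 3 included. TRAV7-3 for BIT against WT gave 0.15 with unique molecules and 0.053 with reads. TRAV7D-3 for BIT against β5i-KO gave -0.052 with TMM and -0.012 with DESeq2. TRAV7D-5 gave 0.0043 with BIT 3 included and 0.022 with the covariate for BIT against β5i-KO, and with the covariate 0.034 for BIT against β5t-KO and -0.012 for β5t-KO against β5i-KO. The TRAV7-3 set for BIT against WT gave -0.071 with TMM and -0.095 with DESeq2. The TRAV7-5 set for BIT against β5i-KO gave 0.016, 0.061 and 0.0091 with BIT 3, thinned molecules and the covariate. CDR3 length differences of β5i-KO, β5t-KO and BIT against WT and of β5t-KO against β5i-KO turned to -0.0366, -0.0381, -0.0281 and -0.0015 residues with unique molecules and to -0.0202, -0.0403, -0.0143 and -0.0201 with 1 V gene. With thinned molecules those of β5i-KO and BIT against WT and of BIT against β5i-KO and β5t-KO were -0.0271, -0.0378, -0.0107 and -0.0475. TRAJ number for BIT against WT was -0.43 with unique molecules and -0.28 with thinned molecules. The share without added nucleotides for BIT against β5i-KO was 0.33 points with BIT 3 included. On leaving out each mouse, the log2 fold changes for BIT against β5i-KO ran from -0.034 to 0.014 (family), -0.080 to 0.11 (TRAV7D-3), -0.18 to 0.23 (TRAV7D-5) and -0.11 to 0.12 (TRAV7-5 set). CDR3 length differences ran from -0.011 to 0.027 (β5i-KO against WT), -0.016 to 0.099 (β5t-KO against WT), -0.053 to 0.062 (BIT against β5t-KO) and -0.028 to 0.087 (β5t-KO against β5i-KO), and that of TRAJ number for BIT against WT from -0.036 to 0.71.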
